A study of Mus musculus with 12 samples.

Results

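Direct RNA reads of 10 pluripotency factors and markers were followed through the neuronal differentiation of P19, a line of mouse embryonal carcinoma cells. The genes were Pou5f1, Nanog, Utf1, Zfp42, Dppa4, Dppa5a, L1td1, Sall4, Klf4 and Tfcp2l1, chosen by name, out of 14664 genes with reads. A read counted when its poly(A) call carried the PASS tag, its class was mRNA and the gene column held one of these names. Of the 10 genes, 7 had at least 1 such read and 4 (Pou5f1, Sall4, L1td1 and Utf1) had the 30 reads over all libraries that the abundance test asked for. Wild-type P19 cells were sampled before differentiation (D0) and on D2, D4 and D6 after induction with 500 nM retinoic acid in NDiff 227 medium on poly-L-lysine, with 3 replicates per day. P19 is a single tumor-derived line, so the replicates share 1 genetic background.

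Pluripotency, the capacity to form every tissue of the embryo, rests on a set of transcription factors that switch on their own genes and those of their partners. Oct4, the POU-domain protein encoded by Pou5f1, binds DNA together with Sox2, and Nanog and Sall4 act at many of the same sites. Embryonal carcinoma cells keep this circuit, and retinoic acid is the classical agent that silences it. Klf4, Tfcp2l1 and Zfp42 (also called Rex1) belong to the naive state of the early epiblast, whereas cells of the later, primed epiblast keep Pou5f1 and lose those genes.

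Promoter sequences of the members are shown because the letters to which such factors are known to bind can be looked for in them. Of the 10 members, 7 matched a RefSeq promoter window (GRCm38.p6). Shown are the 4 matched members with at least 17 reads, and Zfp42 as the other window with an octamer core, picked after the matches were seen. The windows of Klf4 (4 GC boxes) and Tfcp2l1 (none of the 4 motifs) held no octamer core and no SOX letters. Each was printed 5′ to 3′ up to the base before the first transcript start that GENCODE or RefSeq annotates inside it. Capitals mark the letters ATGCAAA (core of the octamer read by Oct4), ACAATG (a SOX site), AGGTCA (a nuclear receptor half-site) or GGGCGG (a GC box), searched on both strands.
Pou5f1 promoter, chr17:35505782-35506017, plus strand: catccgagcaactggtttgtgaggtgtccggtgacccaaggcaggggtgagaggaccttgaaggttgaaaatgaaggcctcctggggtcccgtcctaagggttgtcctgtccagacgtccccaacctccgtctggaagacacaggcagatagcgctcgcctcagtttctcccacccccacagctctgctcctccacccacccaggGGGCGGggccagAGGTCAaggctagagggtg
Nanog promoter, chr6:122707315-122707488, plus strand: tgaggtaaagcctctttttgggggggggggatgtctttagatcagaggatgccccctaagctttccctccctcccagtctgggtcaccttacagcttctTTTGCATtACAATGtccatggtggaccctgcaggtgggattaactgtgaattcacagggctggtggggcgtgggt
Utf1 promoter, chr7:139943606-139943788, plus strand: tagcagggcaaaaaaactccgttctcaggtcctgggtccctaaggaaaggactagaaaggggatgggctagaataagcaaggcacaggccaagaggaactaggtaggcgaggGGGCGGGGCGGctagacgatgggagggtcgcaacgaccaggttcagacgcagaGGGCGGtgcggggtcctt
L1td1 promoter, chr4:98726504-98726733, plus strand: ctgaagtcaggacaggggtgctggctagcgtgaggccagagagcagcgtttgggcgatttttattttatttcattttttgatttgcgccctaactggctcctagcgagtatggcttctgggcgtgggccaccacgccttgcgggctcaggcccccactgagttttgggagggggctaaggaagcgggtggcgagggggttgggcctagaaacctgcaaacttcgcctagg
Zfp42 promoter, chr8:43307010-43307259, minus strand: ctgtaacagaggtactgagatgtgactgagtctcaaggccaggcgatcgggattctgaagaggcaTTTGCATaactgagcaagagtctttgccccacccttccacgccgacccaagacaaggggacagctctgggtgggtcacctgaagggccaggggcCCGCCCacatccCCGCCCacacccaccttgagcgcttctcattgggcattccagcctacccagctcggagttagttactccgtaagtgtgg

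In the Nanog window an octamer core, on the reverse strand and so read as TTTGCAT, stood 1 base before a SOX site. Among all 32851 promoter windows, 3.02% held the octamer core and 7.63% the SOX letters in a stretch of 174 bases as long as that of Nanog. The Zfp42 window also held an octamer core, found in 4.12% of stretches of 250 bases, and a pair of GC boxes. In the Pou5f1 window the capitals are a GC box, held by 30.8% of stretches of 236 bases, followed by a nuclear receptor half-site, held by 13.3%. In the Utf1 window they are 3 GC boxes, the first overlapping the second by 1 base, and 21.5% of stretches of 183 bases held at least 1. None of the 4 motifs was in the L1td1 window. Sall4, Dppa4 and Dppa5a were not in the promoter table.

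The libraries held 472441 to 642548 PASS mRNA reads at D0, 130162 to 257197 at D2, and on the last days 278687 to 474472 (D4) and 305517 to 472514 (D6). No run among the 13 mixed days, so run and day cannot be told apart. The run names of D0 include both a word for undifferentiated cells and the tag D2, and libraries were grouped here by their sample labels. Of the genes checked against the labels, Hoxb2, a Hox gene of the hindbrain, was the one called higher at D2 than at D0. Map2, which encodes a dendritic microtubule protein, had 2, 5 and 5 reads in the D0 libraries, 2, 4 and 2 at D2 (limma-voom adjusted p = 0.394) and 65, 129 and 88 at D6, while Hoxb2 had 0 reads in each D0 library, 20, 40 and 28 at D2 and 255, 372 and 344 at D6. Tubb3 (neuronal tubulin) and Stmn2 (a neuronal stathmin) already had 129 ± 4.68 and 294 ± 17.9 CPM (reads per 1000000) at D0, fewer at D2 (57.3 ± 24.0 and 71.3 ± 18.2), and 832 ± 54.6 and 659 ± 21.7 at D6 (mean ± SD, n = 3). CPM were taken over each library's total after scaling by the trimmed mean of M-values. The share of mitochondrial reads rose from 3.86 to 4.51% in the D0 libraries to 8.28 to 10.5% in the D6 libraries.

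Pou5f1 was by far the most abundant member at D0 and was almost gone by D2. The D0 libraries held 664, 1027 and 782 Pou5f1 reads, the D2 libraries 1, 3 and 0, the D4 libraries 0, 0 and 0, and the D6 libraries 0, 0 and 1. No D0 library overlapped any later one. The level was 1566 ± 137 CPM at D0, which ranked 120th of 14664 genes, and 6.16 ± 5.63 CPM at D2 (mean ± SD, n = 3). Over the pooled, scaled libraries D0 exceeded D2 by 241-fold, with a 95% exact interval of 94.0 to 885 that covers counting error only. Against D4, with 0 reads, D0 was at least 629-fold higher, taking 3 reads over the 3 D4 libraries as the floor. Against the single read of D6 the ratio was 1919, with an interval of 344 to 75843. In the limma-voom fit over all 12 libraries the log2 fold changes at D2, D4 and D6 were -7.77 ± 0.59, -10.24 ± 0.65 and -9.76 ± 0.65 (± SE, adjusted p = 2.93e-15, 6.64e-19 and 3.66e-18). These were the lowest fold changes of all 9355 genes on each day. With so few late reads the size of these changes depends on the pseudocount of 0.5 reads. Pou5f1 passed the read minimum of the test through its D0 libraries alone, which fixed the direction. The adjusted p-values therefore add nothing on the direction. In bulk RNA, fewer cells that hold a transcript and less of it per cell cannot be told apart.

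The last Pou5f1 reads were looked at one by one. Of the 4 reads at D2, 3 had a barcode confidence of at least 0.9966 and 1 had 0.3875, on a scale from 0 to 1. Their tails measured 109, 137, 131 and 77.5 nt. The only read after D2, in D6 replicate 3, had a barcode confidence of 0.656, a mapping quality of 60 and a tail of 37.4 nt. At D0 the median confidence of Pou5f1 reads was 0.9996, and 92.7% of them reached 0.75. Whether this read was assigned to the wrong barcode was not tested, and its run held only D6 libraries.

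Among the other members with reads, Sall4, a zinc finger factor that partners with Oct4, came second at D0. Its reads were 43, 84 and 63 in the D0 libraries, then 0, 2 and 0 at D2, followed by 1, 2 and 2 at D4 and by 1, 1 and 1 at D6. The later libraries all lay below those of D0, and Sall4 had reads in each D4 and each D6 library. All 10 of its reads after D0 had a mapping quality of 0, and the only one in D6 replicate 2 had a barcode confidence of 0.2143 and a tail of 13.4 nt. The only Sall4 read in D6 replicate 3 aligned from nucleotide 12 to 255, far from the 3′ end, as the shortest Sall4 transcript has 2534 nt. Its level was 119 ± 23.3 CPM at D0, and later 2.45 ± 4.25 (D2), 4.12 ± 0.33 (D4) and 2.57 ± 0.63 (D6). D0 exceeded D2 by 37.0-fold (95% exact interval 10.1 to 308), D4 by 29.0-fold (12.2 to 90.3) and D6 by 49.2-fold (16.6 to 240). The 3 intervals overlapped, so no order among the later days could be read from them. The fitted log2 fold changes were -4.76 ± 0.63, -4.46 ± 0.52 and -5.03 ± 0.58 (limma-voom adjusted p = 7.26e-08, 1.22e-09 and 4.15e-10). Since D0 reads alone brought Sall4 into the test, its direction was fixed and these p-values add nothing on it.

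L1td1 encodes an RNA-binding protein that derives from a LINE-1 retrotransposon and is abundant in pluripotent cells. It had 37, 46 and 32 reads in the D0 libraries, 1, 1 and 0 at D2, and none at D4 or D6. From 73.5 ± 9.91 CPM at D0 it went to 3.70 ± 3.72 CPM at D2, a ratio of 22.4 (95% exact interval 6.06 to 187). Against the 0 reads of D4 and of D6, D0 was at least 29.2-fold and 29.8-fold higher, with the same floor of 3 reads over the 3 libraries of a day. The fit gave log2 fold changes of -3.79 ± 0.61, -5.83 ± 0.63 and -5.88 ± 0.63 (limma-voom adjusted p = 6.03e-06, 1.09e-10 and 4.78e-11). As L1td1 too was tested only because of its D0 reads, these p-values add nothing on the direction.

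Utf1, a chromatin-bound factor of undifferentiated embryonic cells, was the tested member that left no read behind at D2. Its D0 libraries held 20, 31 and 33 reads (53.4 ± 10.3 CPM) and each of the 9 later libraries held 0. D0 was therefore at least 10.9-fold higher than D2, 21.4-fold higher than D4 and 21.7-fold higher than D6. The low bound at D2 follows the depth, since 586772 reads at D2 allow a level of up to 5.11 unscaled CPM behind a count of 0, against 2.46 at D4 and 2.59 at D6. The log2 fold changes were -4.40 ± 0.62, -5.38 ± 0.62 and -5.42 ± 0.62 (limma-voom adjusted p = 4.15e-07, 1.06e-09 and 4.29e-10). All Utf1 reads were from D0, so its direction in the test was fixed and these p-values add nothing on it.

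The 4 genes reached the minimum of 30 reads through their D0 libraries alone, so they could hardly have gone any other way. All 4 were called lower on each later day, where 6.06% of the 9355 tested genes were lower at D2, 12.5% on D4 and 18.1% on D6. Between D2 and D4 none of the 4 was called by limma-voom at an adjusted p of 0.05 (3.25% of all genes were, in either direction), and the Pou5f1 change was -2.47 ± 0.88 (adjusted p = 0.115). At an unadjusted p under 0.05 there were 2, Pou5f1 and L1td1, and limma-trend called 1 lower at D4. Between D4 and D6 none was called either, where 8.28% of all genes were. At an unadjusted p under 0.05 there were 0, and limma-trend called 0 lower at D6. After D0 each gene had at most 5 reads per day, and the calls of members lower at D4 than at D2 depended on the fit. There were 2 when no minimum beyond 1 read was set, 1 with the replicate block and 1 without D2 replicate 3.

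Nanog, the homeodomain factor that stabilizes the undifferentiated state, was scarce. It had 5, 10 and 2 reads in the D0 libraries and 0 in every later one. That is 10.5 ± 6.43 CPM at D0, where the SD relative to the mean was larger than for any tested member. D0 was at least 2.21-fold higher than D2, 4.32-fold higher than D4 and 4.40-fold higher than D6. With 17 reads in all it fell under the minimum for the test. When no minimum beyond 1 read was set, 5 members rather than 4 were called lower than at D0 on each later day. The members outside the main test had no PASS read after D0, so their direction was fixed as well.

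The other 5 members had at most 2 reads each. Tfcp2l1, a naive factor downstream of LIF signaling, had 2 reads, both in D0 replicate 2. Dppa4, a chromatin protein of early embryos, had 1 read, in D0 replicate 1. Klf4, a reprogramming factor, and Zfp42, a zinc finger marker of naive cells, had no line under any quality tag in the table used here, so neither a level nor a limit is given for them. Dppa5a, an RNA-binding protein of the inner cell mass, had 0 PASS reads and 1 line, at D4, whose signal failed to load. For Dppa5a, with 0 PASS reads at D0, the 1661980 reads of that day allow up to 0.000181%, or 1.81 unscaled CPM. A fold change was not computed for any of these 5 genes.

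**Figure D1:**
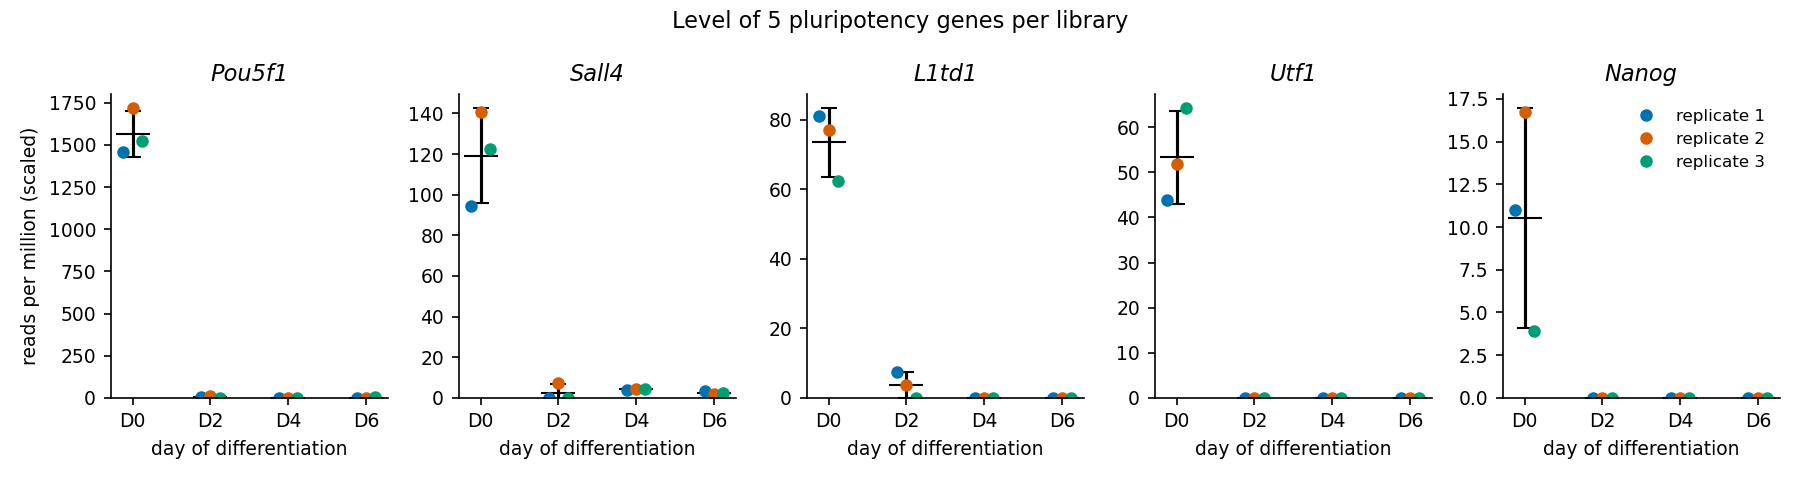
Level in CPM of 5 members in each library (points, colored by replicate), with the mean ± SD of the 3 libraries of a day (bars), for D0, D2, D4 and D6 and with a separate linear scale for each gene. All D0 points lie above every later point, with Pou5f1 at 1566 ± 137 CPM and Nanog at 10.5 ± 6.43 CPM at D0.

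The order of levels at D0 was Pou5f1, Sall4, L1td1, Utf1 and Nanog. Since 1 direct RNA read is 1 RNA molecule, reads were compared between genes without division by length. Pou5f1 had 15.4, 12.2 and 12.4 times the reads of Sall4 in D0 replicates 1, 2 and 3. Sall4 had 1.16, 1.83 and 1.97 times those of L1td1, so it was higher in 3 of 3 libraries. L1td1 against Utf1 gave 1.85, 1.48 and 0.97, which changed order in replicate 3, so these neighbors did not differ beyond their spread. Utf1 had 4.00, 3.10 and 16.5 times the reads of Nanog. Over the 9 combinations of D0 library and run, Pou5f1 ranged from 1296 to 1676 unscaled CPM, Sall4 from 78.5 to 141, L1td1 from 36.6 to 84.4 and Utf1 from 11.2 to 71.9.

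A change in the ratio of any member to Pou5f1 could not be tested, since no member had 3 reads in every library of D2 or D4.

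The reads were also set against the annotated transcripts of each gene. Pou5f1 reads all lay on ENSMUST00000025271.16 (mm10 chr17:35506018-35510772, plus strand, 5 exons, 1362 nt), and 99.8% of them had a mapping quality of at least 10. Their median start at D0 was nucleotide 66, and 98.5% ended within 25 nt of the annotated 3′ end. An AATAAA polyadenylation signal begins 25 nt before that end. Reads that started within the first 100 nt, and so covered nearly the whole transcript, made up 36.7, 67.7 and 60.7% of Pou5f1 reads in D0 replicates 1, 2 and 3. Utf1 (ENSMUST00000168457.2, chr7:139943789-139945112, plus strand, 2 exons, 1227 nt) gave 30, 67.7 and 63.6%. Replicate 1 thus held the lowest share of near full-length reads for both genes.

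Sall4 reads were spread over 3 annotated transcripts with 61 (ENSMUST00000029061.11), 63 (ENSMUST00000075044.9) and 66 (ENSMUST00000103074.1) reads at D0. The gene lies at chr2:168748332-168767201 on the minus strand. These transcripts share their last 2417 nt, and 1 of the 190 D0 reads reached beyond that stretch. The aligner gave a mapping quality of 0 to 98.4 to 100% of the reads of each transcript, so the Sall4 isoforms could not be told apart and the reads were summed per gene. When a mapping quality of at least 10 was asked for, Sall4 dropped under the minimum of 30 reads and only Pou5f1, L1td1 and Utf1 remained tested and called. Nanog (chr6:122707489-122714633, plus strand) likewise had its 17 reads on 3 transcripts with 12, 2 and 3 reads, and 7 of the 17 reached beyond the 1968 nt that these share.

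L1td1 reads lay on ENSMUST00000154279.2 (chr4:98726748-98738480, plus strand, 5 exons, 2942 nt), and 0 of the 115 D0 reads began within 100 nt of its annotated start. The median aligned length was 691 nt. A group of 18 reads (15.7%) began within 11 nt around nucleotide 1403, in coding sequence of exon 4, in 4 of 37, 9 of 46 and 5 of 32 reads of the D0 replicates. They were present in all 3 libraries. No annotated start of the 4 L1td1 transcripts lies there, the nearest being 3541 nt away in the genome. The origin of these reads was not tested.

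**Figure D2:**
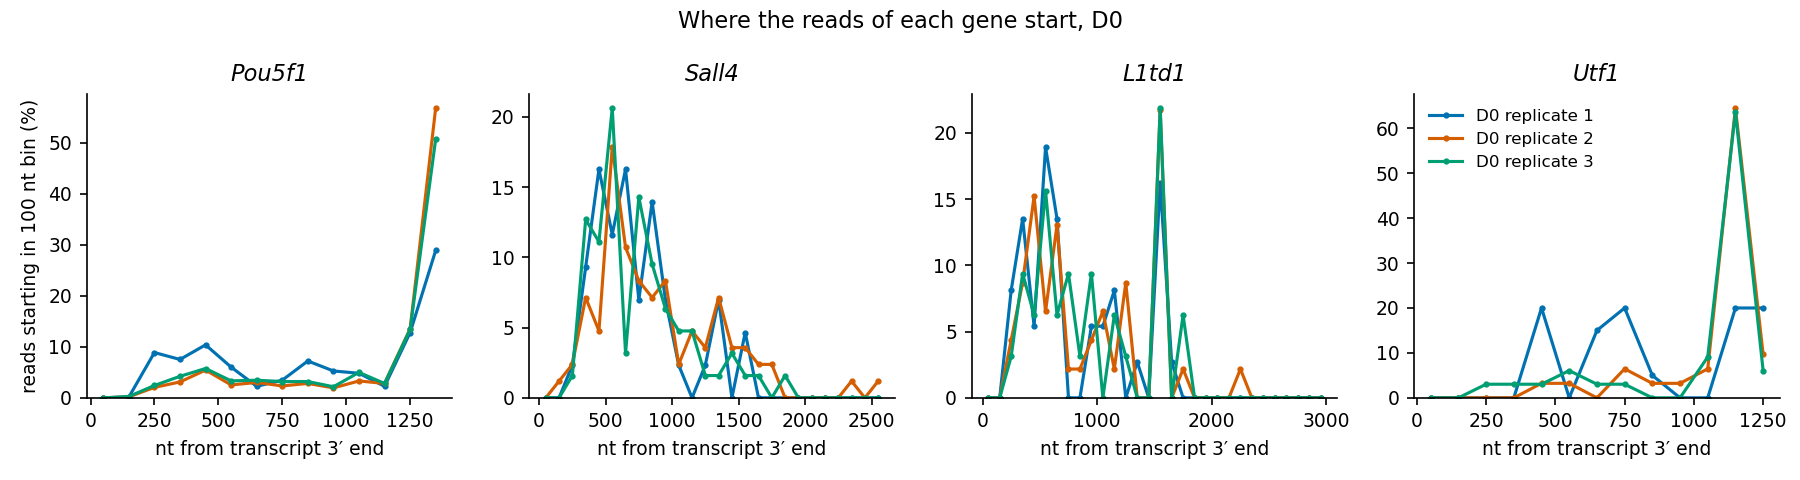
Percentage of the D0 reads of 4 members that start in each 100 nt bin, against the distance in nt from the 3′ end of the transcript, 1 line per D0 replicate. Pou5f1 and Utf1 reads pile up at the 5′ end with a lower peak in replicate 1, Sall4 reads stop mostly within their shared 3′ part, and L1td1 has a separate peak in all 3 libraries in the bin from 1500 nt, with 6, 10 and 7 reads.

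Poly(A) tails are shortened as mRNAs age, and each direct RNA read carries the length of its own tail. At D0 the median Pou5f1 tail was 114, 116 and 114 nt in the 3 libraries, against 97.1, 101 and 102 nt for all mRNA reads of the same libraries. It was longer by 14.9 ± 2.31 nt in 3 of 3 libraries (mean ± SD). Mitochondrial reads were kept among all mRNA reads. Sall4 tails, at 117, 124 and 119 nt, were longer than those of all reads by 20.04 ± 3.17 nt in 3 of 3 libraries. Utf1 tails, at 84.5, 74.1 and 94.96 nt, were shorter by 15.4 ± 9.99 nt, also in 3 of 3 libraries. L1td1 tails, at 87.7, 111 and 91.3 nt, fell on both sides, and their difference of -3.37 ± 11.6 nt was within the spread between libraries. A two-sided exact sign-flip permutation test over 3 libraries cannot go below p = 0.25, and it gave 0.25 for Pou5f1, Sall4 and Utf1 and 0.75 for L1td1.

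Among 5102 genes with at least 10 reads in each D0 library, 66.4% had a shorter mean of the 3 median tails than Pou5f1, 76.8% than Sall4, 18.1% than L1td1 and 2.96% than Utf1. Pou5f1 therefore lay in the middle of the genes and only Utf1 of the 4 lay near an edge, on 20 to 33 reads per library. Of the 6 pairs of members, Sall4 and Utf1 were furthest apart, by 35.4 ± 13.1 nt in 3 of 3 libraries, and Pou5f1 and Utf1 differed by 30.2 ± 11.2 nt. Pou5f1 was shorter than Sall4 by a mean of 5.17 nt, again in each library. The exact permutation p was 0.25, or 0.30 after Benjamini-Hochberg adjustment over the 6 pairs, for each pair but L1td1 against Utf1 (0.75).

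**Figure D3:**
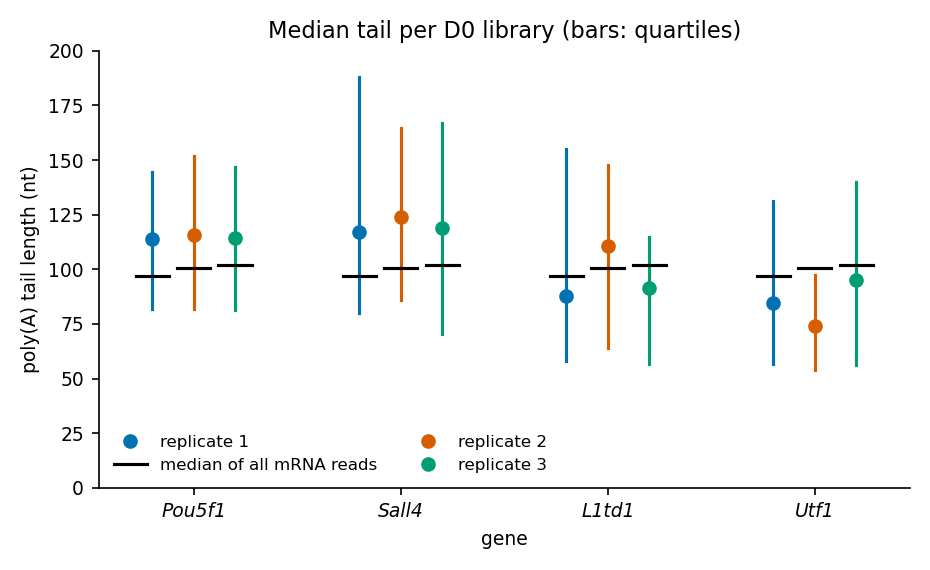
Poly(A) tail length in nt of 4 members at D0, with the median (points) and the quartiles (vertical bars) of the reads of each replicate, and the median of all mRNA reads of the same library (black bars). Pou5f1 and Sall4 points lie above the black bar in 3 of 3 libraries, Utf1 points below it, and L1td1 points on both sides.

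The tail classes of the study separate tails under 30 nt from those of 30 to 90 nt. Of Pou5f1 reads at D0, 1.21 ± 0.17% were under 30 nt and 29.9 ± 0.76% were 30 to 90 nt, against 2.26 ± 0.38% and 40.8 ± 1.54% of all mRNA reads (mean ± SD, n = 3). Sall4 had 1.57 ± 1.36% and 29.5 ± 4.21%, where the first share rests on 1, 2 and 0 reads of D0 replicates 1, 2 and 3. Utf1 had the largest share of short tails, 11.7 ± 3.83% under 30 nt, with 43.0 ± 13.6% from 30 to 90 nt. L1td1 had 2.70 ± 4.68% and 44.8 ± 4.56%, where the first share rests on 3 reads of D0 replicate 1, is 0 without that library and becomes 0.90% with a limit of 25 nt. The largest group of Pou5f1 reads by 10 nt bin began at 100 nt and that of all reads at 60 nt. Pou5f1 tails did not differ beyond the spread between libraries with the length of the read body. Reads starting within the first 100 nt had a median tail of 114 ± 1.01 nt and shorter reads 116 ± 3.37 nt, a difference of -1.93 ± 4.23 nt.

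**Figure D4:**
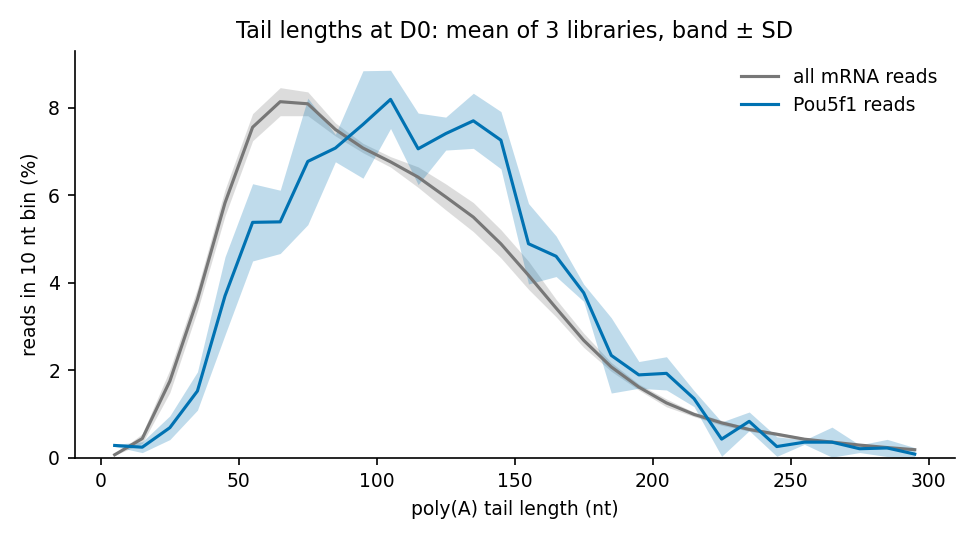
Percentage of D0 reads in each 10 nt bin of poly(A) tail length for Pou5f1 (blue) and for all mRNA reads (grey), as the mean of 3 libraries with a band of ± SD. The Pou5f1 curve is highest in the bin from 100 nt and that of all reads in the bin from 60 nt.

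A change in tail length over the days could not be tested for any member, because none had 10 reads in each library of a later day. For this reason the tail fits of D2 (1822 genes) and D4 (3387 genes) against D0 held 0 members. Over all genes tested, 5.54% were shorter and 0.165% longer at D2, and 4.16% were shorter and 0.177% longer at D4. The 101 shorter genes at D2 became 57 with each library centred, 47 without D2 replicate 1, 21 without D2 replicate 2 and 46 without D2 replicate 3. The median tail of all reads went from 97.1 to 102 nt in the D0 libraries to 91.5 to 93.3 nt in those of D2. Mitochondrial reads were kept in these medians, and their share was 3.86 to 4.51% at D0 and 5.49 to 6.82% at D2. Their part in the drop was not tested.

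Related genes were followed in 4 lists. A gene with fewer than 30 reads after D0 was tested only because of its D0 reads and could hardly be called higher, so such genes are counted apart in each list. The naive pluripotency network list held 21 genes, of which 16 had reads and 6 were tested. It had 1 higher and 2 lower genes at D2, then 1 and 3 on D4, then 2 and 3 on D6. Without Eras and Zscan10, which had fewer than 30 reads after D0, 1 of 4 was lower on each day. The median log2 fold change of the 6 was -0.02, -0.08 and 0.23 on these days, and that of the 4 was 0.71, 0.85 and 1.64, against -0.04, 0.01 and 0.02 over all genes. Of these 4, Stat3, Gbx2 and Zfp57 had fewer than 30 reads at D0. Their later reads brought them into the test, so the filter itself pushes the median of the 4 upward. Of all genes, 4.72% were called higher at D2, 12.9% on D4 and 19.4% on D6, and 6.06, 12.5 and 18.1% were called lower. Eras, a Ras-like gene of embryonic stem cells, went from 61.6 ± 11.99 CPM at D0 to 7.41 ± 7.43 at D2 and 0 at D6 (log2 fold change at D6 -5.61). Gbx2 (4.19) and Zfp57 (2.43) were called higher, but both had fewer than 30 reads at D0 and were tested because of their later reads. Neither of the 2 tested genes of this list with at least 30 reads at D0 (Eras and Sox2) was higher on any day. Gbx2, a homeobox gene that also patterns the hindbrain border, had 0, 1 and 0 reads at D0 and 10, 10 and 10 at D6. Zfp57 protects imprinted methylation. Sox2, singled out after its values were seen as the partner of Oct4, fell from 242 ± 15.8 CPM at D0 to 140 ± 27.1 at D2 and was 182 ± 20.7 at D6, with log2 fold changes of -0.73 and -0.39 (limma-voom adjusted p = 0.00485 and 0.0232). Sox2 is also a gene of neural progenitors.

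The primed and formative pluripotency list was better covered, with 11 of 15 genes tested. At D2 7 of the 11 fell and none rose, at D4 7 fell and 2 rose, and at D6 6 fell and 2 rose. Over all genes the shares on these days were 6.06, 12.5 and 18.1% lower and 4.72, 12.9 and 19.4% higher. Otx2, Dnmt3b and Etv5 had fewer than 30 reads after D0, and of the other 8 genes 4, 4 and 3 fell. The median log2 fold change was -2.23, -1.65 and -0.41 over the 11, and -0.90, -0.97 and 0.09 over the 8. Dnmt3b, a de novo DNA methyltransferase, had 76, 71 and 81 reads at D0, 2, 4 and 4 at D2 and 1, 2 and 0 at D6 (log2 fold change at D6 -5.52). Otx2, a homeobox factor of the primed epiblast and forebrain, had 76, 140 and 102 reads at D0, 1, 3 and 1 at D2 and 2, 4 and 7 at D6 (-4.19). Sox4, which is also active in young neurons, rose from 45.2 ± 3.90 to 230 ± 30.6 CPM (2.34).

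Of 24 Oct4 and Nanog targets and partners, 20 were tested. The counts of lower genes on D2, D4 and D6 were 8, 11 and 10, with 0, 1 and 2 higher. All tested genes gave 6.06, 12.5 and 18.1% lower and 4.72, 12.9 and 19.4% higher. Of the 20, 6 (Tdgf1, Lefty1, Nodal, Trim71, Rest and Sall3) had fewer than 30 reads after D0, and of the other 14 genes 4, 5 and 6 were lower. The medians were -0.99, -1.41 and -0.79 over the 20, and -0.48, -0.61 and -0.49 over the 14. The 3 genes with the largest change at D6 were Lefty1, a Nodal antagonist (-5.16), Tdgf1, the Nodal co-receptor Cripto (-5.07), and Lin28a, an RNA-binding repressor of let-7 (-4.51). Lefty1 and Tdgf1, like Eras, had 0 reads in each D6 library, so their fitted values depend on the pseudocount and are no bounds. Tdgf1 had 25, 22 and 19 reads at D0 and 0 in each later library, as Utf1 had. Lin28a, after 151 ± 9.91 CPM at D0, was still at 49.2 ± 11.02 on D2, then at 12.4 ± 6.73 on D4 and at 5.37 ± 2.30 on the last.

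In the list of embryonal carcinoma surface and adhesion genes, 5 of 12 were tested, with 1 lower and 1 higher at D2 and 3 lower and 1 higher at D4 and at D6. Among all genes, 6.06, 12.5 and 18.1% were lower and 4.72, 12.9 and 19.4% higher on the 3 days. Without Epcam, which had fewer than 30 reads after D0, 1, 2 and 2 of 4 were lower. Podxl, an anti-adhesive sialomucin (-2.70 at D6), and Alpl, the alkaline phosphatase used as a stain for pluripotent colonies (-1.51), fell. Cd24a, a surface glycoprotein that neurons also carry, rose from 121 ± 9.49 to 630 ± 53.7 CPM (2.37). The median of the 5 genes was -0.61, -1.75 and -1.51, and without Epcam -0.23, -0.71 and -0.80.

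**Figure D5:**
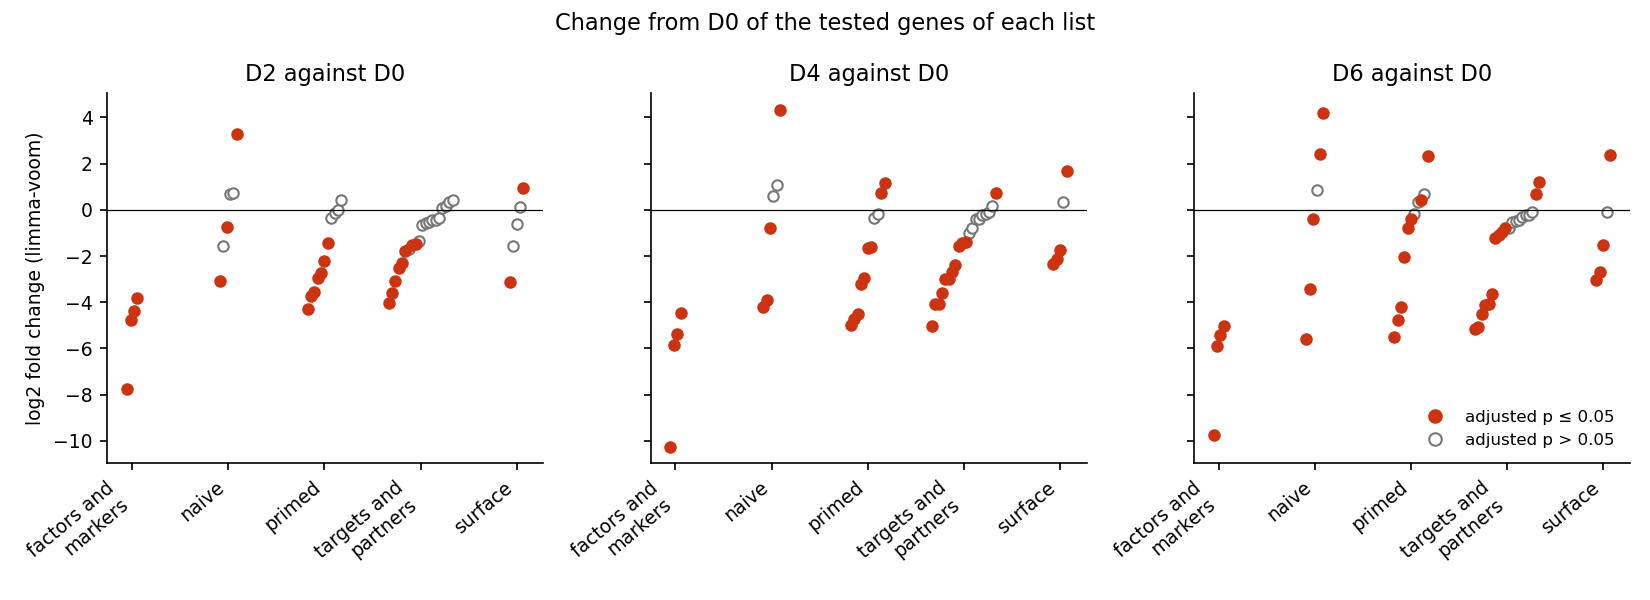
Log2 fold change (limma-voom, linear axis of log2 values) of each tested gene of the members and of the 4 lists, at D2, D4 and D6 against D0, with genes at an adjusted p of at most 0.05 in red. The 4 tested members lie between -3.79 and -10.24, and the primed list and the list of targets lie mostly below 0 at D2.

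Markers of neural cells also changed over the days, and their part in the loss of the members was not tested. The summed level of 7 neural progenitor genes was 60.4 to 93.8 CPM in the D0 libraries and 453 to 563 at D2, and that of 7 neuron genes was 487 to 520 at D0, 282 to 467 at D2, when the members were already low, and 2342 to 2463 at D6. By the test, 6 of the 7 progenitor genes were higher at D2, as was 1 of 7 neuron genes while 2 were lower, and all 7 of each were higher at D6. Of all genes, 4.72% were higher and 6.06% lower at D2, and 19.4% were higher at D6. Fewer than 30 reads at D0 were held by 5 of the progenitor and 4 of the neuron genes, so these were tested because of their later reads. Endoderm markers summed to at most 14.9 CPM in any library, with Gata4, Sox17, Afp and Apoa1 listed at 0, and mesoderm markers to at most 10.97 CPM, with Mesp1 and Hand1 among those listed at 0. Glial markers reached 34.0 CPM, nearly all from Mbp, with Aqp4 and S100b listed at 0. Genes listed at 0 had no PASS read in the table used here and are not read as absent.

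The genes whose pattern was most like that of Pou5f1 were ranked by Pearson correlation of log2 CPM over the 12 libraries among 2818 genes with a mean of at least 20 reads. The first was Chchd10, a mitochondrial protein gene (r = 0.963), followed by Otx2 (0.960), Psme4, a proteasome activator (0.956), Mif, a cytokine (0.952), and Pgk1, a glycolytic enzyme (0.9504). With 3 libraries per day, such values describe the drop after D0 that the libraries share. Chchd10 fell from 1021 ± 97.3 CPM at D0 to 40.2 ± 3.99 at D2, a log2 fold change of -4.62 ± 0.29, whereas Psme4 fell from 163 ± 10.7 to 86.1 ± 15.2 CPM, a log2 fold change of -0.86 ± 0.23. Both were chosen for this pattern, so no test of it is given.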

How the data were processed

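Native poly(A) RNA of P19 cells was sequenced on nanopores in 12 libraries, 3 per day. Per the study's methods, Guppy was the base caller, Minimap2 2.20 placed the reads on transcripts of the mm10 build, Nanopolish gave the tails and Deeplexicon the barcodes, and the authors deposited the outcome with 1 line per alignment. Tail lengths and alignment positions in it are in nucleotides. The mapping quality the authors deposited is a score from 0 to 60, and the deposited barcode confidence is a fraction. A deposited table of the authors' own DESeq2 fold changes and p-values was not used.

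Reads with tag PASS and class mRNA (77.7% of assigned lines had the tag) were tallied per gene and library. The study fitted its own count matrix, so limma-voom (limma 3.58.1, R 4.3.3) was used on these tallies, over all 12 libraries, with trimmed mean of M-values scaling (30% of ratios and 5% of levels trimmed), at least 30 reads per gene, a pseudocount of 0.5, and Benjamini-Hochberg adjustment with calls at 0.05. Tails were fitted with limma on mean log2 length weighted by reads, for genes with at least 10 reads in each of the 6 libraries of a pair of days. Intervals are 95%, and as reads carry no molecular identifier they cover counting error only. Transcript positions were those in the table and were the same in GENCODE M21. Both fits were tested on simulated data. Tables were made with pandas 2.3.3 and SciPy 1.17.1 in Python 3.11.15.

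The members and the gene lists were chosen with earlier results of these data known. Besides the 10 members, the rule named from each list the 3 called genes with the largest change at D6 and a mean of at least 5 reads, the 5 genes most like Pou5f1, and Map2, Tubb3, Stmn2 and Hoxb2. The alternatives were other scalings, minimums, read filters, fits and left-out libraries.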

Additional observations from a re-analysis of the deposited data

How the results depend on the processing

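The 4 tested members passed the minimum through D0, which fixed their direction, so their unchanged calls against D0 say nothing of stability and only the sizes are given. Over the alternatives in which a member could be tested, the log2 fold change of Pou5f1 ranged from -8.32 to -7.01 at D2 and from -10.30 to -9.29 at D6, that of Sall4 at D2 from -5.40 to -3.82, that of L1td1 from -4.33 to -3.34 and that of Utf1 from -4.67 to -4.16. Of the members called lower at D4 than at D2, 0 became 2 with no minimum beyond 1 read, 1 with limma-trend and 0 to 1 when 1 library was left out (1 without D2 replicate 3). The cause was not tested. No member was called lower at D6 than at D4 under any alternative, and calls of higher members were not counted in the alternatives.

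The replicate numbers mark barcodes. Deviations of same-numbered libraries from their day correlated at -0.13 to 0.18, above 0.1 in 4 of 18 pairs. Those of differently numbered libraries correlated at -0.21 to 0.17, above 0.1 in 2 of 36 pairs. The main fit did not pair the samples, and whether libraries of the same number share a component was not tested. With the replicate block 1 member was called lower at D4 than at D2 in place of 0, and the block changed no other count of lower members.

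Tail fits held 0 members under every alternative. The number of genes called in them at D2 was 104, 63 with each library centred, and 24 to 131 when 1 library was left out (49 without D2 replicate 1, 24 without D2 replicate 2, 48 without D2 replicate 3). With class limits of 25 and 85 nt the Pou5f1 share of the shorter class at D0 became 0.85% and of the middle class 26.6%, and that of Utf1 in the shorter class 7.50%. With 35 and 95 nt the Pou5f1 shares became 1.89% and 33.2%. D2 replicate 1 held 130162 reads, and the ratios of members to Pou5f1 could not be computed after D0.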
